A study of Mus musculus with 24 samples.

Results

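The 31 genes described here belong to the synthesis, uptake control and export of cholesterol, and they were followed in primary cortical astrocytes of the mouse that had received X-rays 6 h or 24 h before harvest. They were taken by symbol from count tables that list 49315 genes, and all 31 passed the filter on low counts in each comparison. They were chosen by symbol with results of these libraries in view, namely the levels of the genes in the 6 groups and their difference between 24 h and 6 h at each dose, so the values of that difference are a description without a test. Each dose was tested against mock-irradiated cells, as was the dose effect between the time points, but since the levels in all groups were known when the list was made, these tests are not independent of the choice. By their roles the genes were grouped into 8 of the precursor and mevalonate steps, 11 of the squalene and sterol steps, 6 of the control by SREBP and of transport within the cell, and 6 of LXR, export and uptake control.

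Astrocytes of wild type C57BL/6J mice were isolated from the cortex of embryos shortly before birth, the cells of all embryos of a pregnant mouse being pooled, and were irradiated in passage 1, on the third day after seeding. The 6 groups received 0 Gy (mock-irradiated cells, handled alike with the X-ray source off), 0.1 Gy or 2 Gy and were harvested 6 h or 24 h later, with 4 biological repeats each, for which new astrocytes were isolated. In each dose group, the cells harvested at 24 h had also been in culture for longer than those harvested at 6 h, so that time after exposure and time in culture cannot be told apart. Since RNA of whole cultures was sequenced, fewer cells of a type and less RNA per cell cannot be told apart either.

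Cells make cholesterol from acetyl-CoA, which is built up through mevalonate to isoprenoid units, squalene and lanosterol, and lanosterol is converted to cholesterol in a series of sterol steps. Transcription of most of these enzymes is driven by SREBP proteins, which the escort protein Scap carries out of the endoplasmic reticulum when sterols are low and which Insig proteins hold back when sterols are high. When sterols are plentiful, the receptors LXR alpha and LXR beta favour the export pumps Abca1 and Abcg1 and the degradation of lipoprotein receptors by Mylip. In the brain, which is largely cut off from the cholesterol of the blood, astrocytes make much of the cholesterol and release it on particles that carry apolipoprotein E.

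Libraries held between 14742855 and 38194800 counts (median 24829888.5), and the lowest count of any of the 31 genes in any library was 81, for *Abcg1*. The 9 astrocyte markers were detected in all 24 libraries, with *Gfap*, the astrocyte filament gene, between 343.5 and 797.6 CPM (counts per 1000000 after TMM normalization, which scales the libraries to a common size). Others were low, with *Slc1a2* between 23.8 and 70.3 CPM and *S100b* between 1.15 and 5.67 CPM. The summed level of 8 microglial markers was from 175.5 to 201.9 CPM in the 6 libraries with replicate number 2 and from 1150 to 1828 CPM in the other 18, and none of these markers was at 0 in any library. In the dose comparisons, same-numbered libraries lay on the same side of their group means, so these were also fitted with the replicate number as a block, and the blocked value is given where it changes a call.

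Promoter sequences are shown for 4 of the genes whose levels moved together between the time points, *Hmgcs1*, *Mvd*, *Lss* and *Insig1*, to show the letters at which SREBP and its partner factors are known to bind. The windows reach from 250 bases before to 50 bases after a RefSeq transcript start in GRCm38.p6, 5′ to 3′ on the strand of the gene, at chr13:119690101-119690400 (plus strand) for *Hmgcs1*, chr8:122443373-122443672 (minus strand) for *Mvd*, chr10:76531355-76531654 (plus strand) for *Lss* and chr5:28071162-28071461 (plus strand) for *Insig1*. Capitals mark the sterol regulatory element searched here (TCACNCCAC) and the CCAAT box (CCAAT, or ATTGG where it lies on the other strand).
Hmgcs1: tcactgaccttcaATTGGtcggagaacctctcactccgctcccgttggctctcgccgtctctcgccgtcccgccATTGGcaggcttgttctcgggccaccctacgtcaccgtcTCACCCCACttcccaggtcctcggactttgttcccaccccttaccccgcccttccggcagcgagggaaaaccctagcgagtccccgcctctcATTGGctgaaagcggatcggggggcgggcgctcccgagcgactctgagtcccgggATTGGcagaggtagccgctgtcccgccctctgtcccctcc
Mvd: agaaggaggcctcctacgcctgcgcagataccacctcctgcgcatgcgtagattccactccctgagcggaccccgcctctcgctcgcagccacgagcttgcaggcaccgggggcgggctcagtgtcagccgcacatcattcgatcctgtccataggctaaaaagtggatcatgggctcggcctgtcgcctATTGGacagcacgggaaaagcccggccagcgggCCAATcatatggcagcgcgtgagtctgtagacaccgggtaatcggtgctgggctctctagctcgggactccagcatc
Lss: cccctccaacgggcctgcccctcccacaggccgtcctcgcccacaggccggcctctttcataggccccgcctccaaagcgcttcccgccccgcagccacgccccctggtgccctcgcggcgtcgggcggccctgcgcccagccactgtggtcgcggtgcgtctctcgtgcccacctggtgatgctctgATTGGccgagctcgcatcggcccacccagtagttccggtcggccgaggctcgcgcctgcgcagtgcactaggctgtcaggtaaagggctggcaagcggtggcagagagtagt
Insig1: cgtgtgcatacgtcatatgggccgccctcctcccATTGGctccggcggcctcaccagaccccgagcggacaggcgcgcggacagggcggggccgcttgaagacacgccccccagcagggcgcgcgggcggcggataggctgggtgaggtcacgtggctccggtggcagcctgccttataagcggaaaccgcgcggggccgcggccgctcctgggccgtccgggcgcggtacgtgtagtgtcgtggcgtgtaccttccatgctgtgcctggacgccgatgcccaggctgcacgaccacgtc
Of the 31 genes, 26 had a window. The sterol regulatory element, searched with these letters alone and on both strands, was found in the window of *Hmgcs1*, 137 to 129 bases before the start, and in no other of the 26, while 1.44% of 27025 genes with a window held it. The CCAAT box was in the windows of 20 of the 26 genes, against 41.1% of all genes, and the GC box (GGGCGG) in 21 of the 26, against 38.2%. Among them were genes whose libraries at 6 h and 24 h overlapped in mock-irradiated cells. These were *Ggps1*, *Tm7sf2*, *Ebp*, *Srebf1*, *Insig2* and *Mylip* for the CCAAT box, and *Tm7sf2*, *Ebp*, *Srebf1*, *Insig2*, *Mylip*, *Scap* and *Abca1* for the GC box. The matches of different motifs did not overlap in the 4 windows shown. A match is a string of letters and not a measured binding site, and the absence of one says only that these letters are not in the window.

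Levels were compared between genes as CPM per kilobase of the gene length listed in the tables. In mock-irradiated cells at 6 h, *Apoe*, which encodes apolipoprotein E, had the highest level of the 31 genes, with 1708 ± 985 CPM per kilobase (SD, n = 4), followed by *Hmgcs1*, which encodes the enzyme that makes HMG-CoA, with 333 ± 47.9. *Insig1* had 116 ± 20.1, *Cyp51*, the lanosterol demethylase gene, 97.1 ± 17.1, and at the low end stood *Mylip* (4.88 ± 1.45), *Abcg1* (3.58 ± 1.90) and *Nr1h3* (3.07 ± 0.73). From *Insig1* down to *Ebp*, each gene overlapped the next in this order in its libraries, so neighbours there did not differ beyond their spread. In mock-irradiated cells at 24 h, *Apoe* (1084 ± 602 CPM per kilobase) and *Hmgcs1* (85.5 ± 25.5) again stood apart from the genes below them, and the export pump gene *Abca1* followed with 46.5 ± 13.2. *Lss*, the gene of lanosterol synthase, was 21st of 31 at 6 h (17.2 ± 3.56) and 30th at 24 h (3.59 ± 0.63).

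Between 6 h and 24 h, most genes of cholesterol synthesis were lower at 24 h at every dose. The summed level of the 19 synthesis enzymes in mock-irradiated cells was 4650, 3705, 4016 and 3626 CPM in replicates 1 to 4 at 6 h and 1251, 1699, 1226 and 1102 CPM at 24 h. After 0.1 Gy it was from 3723 to 5108 CPM at 6 h and from 1098 to 1413 CPM at 24 h, and after 2 Gy from 3871 to 4417 CPM and from 1059 to 1369 CPM. No library at 24 h reached the level of any library at 6 h, at any dose. The median log2 fold change of the 31 genes (24 h against 6 h) was −1.11 in mock-irradiated cells, −0.99 after 0.1 Gy and −1.07 after 2 Gy, where the medians of all genes tested were −0.017, −0.008 and −0.002.

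The libraries of the time points did not overlap for 19 of the 31 genes in mock-irradiated cells, all lower at 24 h (7.44% of all genes tested were lower and 7.82% higher without overlap), for 19 lower and 1 higher after 0.1 Gy (9.38% and 9.6% of all genes) and for 18 lower and 2 higher after 2 Gy (9.36% and 8.74%). The higher genes were *Nr1h2* after 0.1 Gy, and *Nr1h2* and *Scap* after 2 Gy. The genes that overlapped in mock-irradiated cells were *Ggps1*, *Tm7sf2*, *Ebp*, *Srebf1*, *Insig2*, *Scap* and all 6 genes of LXR, export and uptake control, and *Pmvk* in addition overlapped after 2 Gy. Because this comparison led to the list, the number of its genes with an adjusted p under 0.05 in edgeR (called, in what follows) is given for scale and is no test of the list. It was 19 in mock-irradiated cells (6.7% of all genes, 3.46% lower and 3.24% higher), 19 after 0.1 Gy (9.9%, 5.33% and 4.57%) and 18 after 2 Gy (6.95%, 3.92% and 3.02%), all of them lower at 24 h. With 1 library left out it ranged in mock-irradiated cells from 11 (without replicate 1 at 24 h, where 1.21% of all genes were called) to 21 (without replicate 3 at 24 h, where 18.6% were). The numbers paired the libraries of the time points after 0.1 Gy and 2 Gy, and with the replicate block it was 21 at both doses (25.7% and 19.2% of all genes), the genes added being *Nr1h2*, *Nr1h3* and, after 2 Gy, *Pmvk*.

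**Figure D1:**
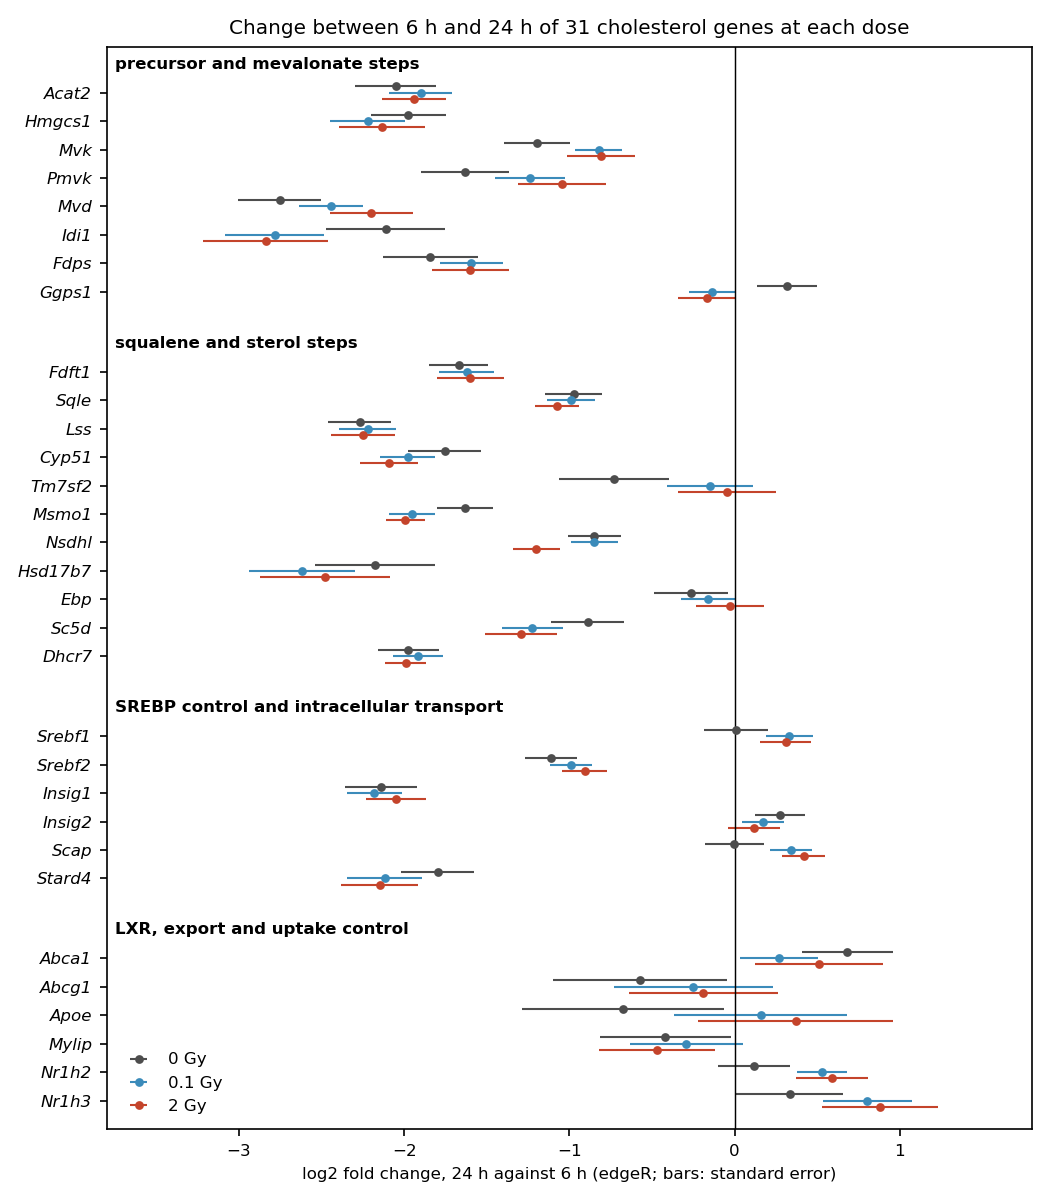
Log2 fold change of 24 h against 6 h for the 31 genes in cells exposed to 0 Gy (grey), 0.1 Gy (blue) and 2 Gy (red), ordered by role (points: edgeR estimate, bars: standard error). Of the 8 mevalonate genes 7 and of the 11 sterol genes 9 lie near −0.8 or lower at each dose, while the LXR and export genes lie on both sides of 0.

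Of the 8 genes of the precursor and mevalonate steps, 7 were lower at 24 h without overlap in mock-irradiated cells, 7 after 0.1 Gy and 6 after 2 Gy, with median log2 fold changes of −1.91, −1.75 and −1.77. *Mvd* (chromosome 8 of GRCm38, 122433601 to 122443422, minus strand), whose enzyme decarboxylates mevalonate diphosphate, had 87.3, 62.4, 67.5 and 92.6 CPM in mock-irradiated replicates 1 to 4 at 6 h and 8.02, 10.1, 16.8 and 11.6 CPM at 24 h. All libraries at 24 h were far below all libraries at 6 h. The log2 fold change was −2.75 (SE 0.25), which is 6.74-fold lower, against −2.44 (SE 0.19) after 0.1 Gy and −2.20 (SE 0.25) after 2 Gy. *Idi1* (chromosome 13, 8885501 to 8892451, plus strand), whose enzyme interconverts the isoprenoid units, had 176.1, 148.2, 142.1 and 91.1 CPM at 6 h and 31.3, 56.6, 17.5 and 24.6 CPM at 24 h in mock-irradiated cells. The time points did not overlap. Its log2 fold change was −2.11 (SE 0.36) in mock-irradiated cells, −2.78 (SE 0.30) after 0.1 Gy and −2.84 (SE 0.38) after 2 Gy. *Acat2* (chromosome 17, 12942890 to 12960747, minus strand), whose enzyme joins acetyl-CoA units, had 115.5, 80.7, 91.1 and 113.4 CPM at 6 h and 15.9, 30.6, 31.2 and 20.1 CPM at 24 h, again without overlap. Its log2 fold change was −2.05, −1.90 and −1.94 at 0, 0.1 and 2 Gy.

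The HMG-CoA synthase gene *Hmgcs1* was the most abundant of these enzymes, from 917.2 to 1283 CPM at 6 h and from 214.4 to 397.7 CPM at 24 h in mock-irradiated cells, and its log2 fold change was −1.98, −2.22 and −2.14 at 0, 0.1 and 2 Gy. The kinase gene *Mvk*, whose enzyme phosphorylates mevalonate, and *Pmvk*, whose enzyme phosphorylates the product, had −1.20 and −1.63 in mock-irradiated cells and smaller differences after 2 Gy, −0.81 and −1.04. *Fdps*, the gene of farnesyl diphosphate synthase, had −1.84, −1.59 and −1.60. *Ggps1* makes geranylgeranyl diphosphate for protein prenylation, a branch that leaves the path to sterols, and it differed from the others, with 35.3, 35.8, 42.6 and 28.6 CPM in mock-irradiated cells at 6 h and 51.7, 49.3, 33.3 and 44.5 CPM at 24 h. Its time points overlapped at each dose, with log2 fold changes of 0.32 (SE 0.18), −0.14 (SE 0.14) and −0.17 (SE 0.18).

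Of the 11 genes of the squalene and sterol steps, 9 were lower at 24 h without overlap at each dose, with medians of −1.63, −1.62 and −1.60. *Lss* (chromosome 10, 76531588 to 76557138, plus strand), whose enzyme closes the sterol rings, had 235.3, 150.2, 194.3 and 160.7 CPM in mock-irradiated cells at 6 h and 34.0, 44.5, 44.8 and 31.8 CPM at 24 h. The lowest library at 6 h was well above the highest at 24 h. The log2 fold change was −2.27 (SE 0.19), and it was −2.22 after 0.1 Gy and −2.25 after 2 Gy. *Hsd17b7* (chromosome 1, 169949535 to 169969241, minus strand), a sterol reductase gene, had 299.4, 247.4, 237.2 and 157.8 CPM at 6 h and 45.2, 95.2, 30.8 and 38.7 CPM at 24 h. Replicate 2 was the highest at 24 h and still below every library at 6 h. Its log2 fold change was −2.18 (SE 0.36) in mock-irradiated cells, −2.62 (SE 0.32) after 0.1 Gy and −2.48 (SE 0.39) after 2 Gy. *Dhcr7* (chromosome 7, 143823145 to 143848410, plus strand), whose enzyme reduces dehydrocholesterol to cholesterol, had 99.4, 73.7, 76.0 and 97.6 CPM at 6 h and 18.7, 28.1, 20.5 and 21.7 CPM at 24 h, without overlap. Its log2 fold change was −1.98, −1.92 and −1.99.

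Squalene synthase (*Fdft1*), which commits farnesyl diphosphate to sterols, had −1.67, −1.62 and −1.60, lanosterol demethylase (*Cyp51*) −1.76, −1.98 and −2.09, and methylsterol monooxygenase (*Msmo1*) −1.63, −1.95 and −1.99. The differences of squalene epoxidase (*Sqle*), a control point of the path, were smaller, at −0.98, −0.99 and −1.07, as were those of the sterol dehydrogenase gene *Nsdhl* (−0.85, −0.85 and −1.20) and the sterol desaturase gene *Sc5d* (−0.89, −1.22 and −1.29). For all of these genes the time points did not overlap at any dose. *Tm7sf2*, another sterol reductase gene, had 44.4, 27.7, 31.9 and 49.5 CPM in mock-irradiated cells at 6 h and 20.3, 12.3, 39.7 and 21.5 CPM at 24 h, which overlap, with a log2 fold change of −0.73 (SE 0.34) that was −0.15 after 0.1 Gy and −0.05 after 2 Gy. *Ebp*, the sterol isomerase gene, had −0.26 (SE 0.22), −0.16 and −0.03.

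The genes of the control by SREBP did not all share this pattern. *Insig1* (chromosome 5, 28071363 to 28078662, plus strand), itself a target of SREBP and its inhibitor, had 451.4, 344.7, 321.7 and 320.2 CPM in mock-irradiated cells at 6 h and 71.3, 116.8, 72.3 and 69.2 CPM at 24 h. The libraries at 6 h lay far above those at 24 h, where replicate 2 was highest. The log2 fold change was −2.14 (SE 0.22), −2.18 (SE 0.17) and −2.05 (SE 0.18) at 0, 0.1 and 2 Gy. The paralog *Insig2*, whose protein has the same retaining role, had 0.28 (SE 0.15), 0.17 and 0.12, with overlapping libraries at each dose. *Stard4* (chromosome 18, 33199355 to 33213862, minus strand), whose protein carries sterols between membranes, had 163, 106.5, 119.6 and 105.8 CPM at 6 h and 35.7, 49.2, 28.2 and 30.7 CPM at 24 h, without overlap. Its log2 fold change was −1.80, −2.12 and −2.15. *Srebf2* (chromosome 15, 82147266 to 82205376, plus strand) encodes the SREBP that mainly drives cholesterol synthesis, and it had 410.8, 392.2, 337.9 and 330.7 CPM at 6 h and 142.3, 167.9, 213.9 and 165.9 CPM at 24 h. All libraries at 24 h were lower, and the log2 fold change was −1.11 (SE 0.16), −0.99 and −0.91. *Srebf1*, which encodes the SREBP forms more tied to fatty acid synthesis, had 0.01 (SE 0.20), 0.33 and 0.31, and *Scap* 0.00 (SE 0.18), 0.34 and 0.42.

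The 6 genes of LXR, export and uptake control all overlapped between the time points in mock-irradiated cells, and their median log2 fold changes were −0.15, 0.21 and 0.44. *Abca1* (chromosome 4, 53030787 to 53159895, minus strand), the pump that loads lipid onto apolipoproteins, had 283.2, 371.9, 353.1 and 183.8 CPM in mock-irradiated cells at 6 h and 506.4, 618, 292.4 and 512.5 CPM at 24 h. At 24 h replicate 3 lay among the libraries at 6 h and the other 3 above them, so the time points overlapped, with log2 fold changes of 0.68 (SE 0.28), 0.27 (SE 0.24) and 0.51 (SE 0.39). *Apoe* (chromosome 7, 19696109 to 19699188, minus strand) had 5238, 1095, 2763 and 5512 CPM at 6 h and 2457, 486.3, 3447 and 2883 CPM at 24 h. Replicate 2, in which the microglial markers were low, was the lowest library in each of the 6 groups. The log2 fold changes were −0.68 (SE 0.61), 0.16 (SE 0.52) and 0.37 (SE 0.59), each close to or within its error. *Abcg1* (chromosome 17, 31057698 to 31115777, plus strand), a second lipid pump gene, had 14.5, 4.06, 17.2 and 22.4 CPM at 6 h and 8.31, 3.77, 11.8 and 15.5 CPM at 24 h. Its libraries overlapped and replicate 2 was again the lowest, with a log2 fold change of −0.58 (SE 0.53).

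Replicate 2 was also the lowest library for *Mylip* in all 6 groups, with 4.19 to 10.1 CPM against 10.8 to 19.6 CPM in the other replicates. The part of microglial RNA in the levels of *Apoe*, *Abcg1* and *Mylip* was not tested. The LXR genes *Nr1h2* and *Nr1h3* had log2 fold changes of 0.12 (SE 0.22) and 0.33 (SE 0.32) in mock-irradiated cells, 0.53 and 0.80 after 0.1 Gy and 0.59 and 0.88 after 2 Gy. For *Nr1h2*, which had 46.6, 40.6, 49.3 and 49.5 CPM at 6 h and 59.1, 53.5, 84.5 and 75.2 CPM at 24 h after 0.1 Gy, the time points did not overlap after either dose.

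**Figure D2:**
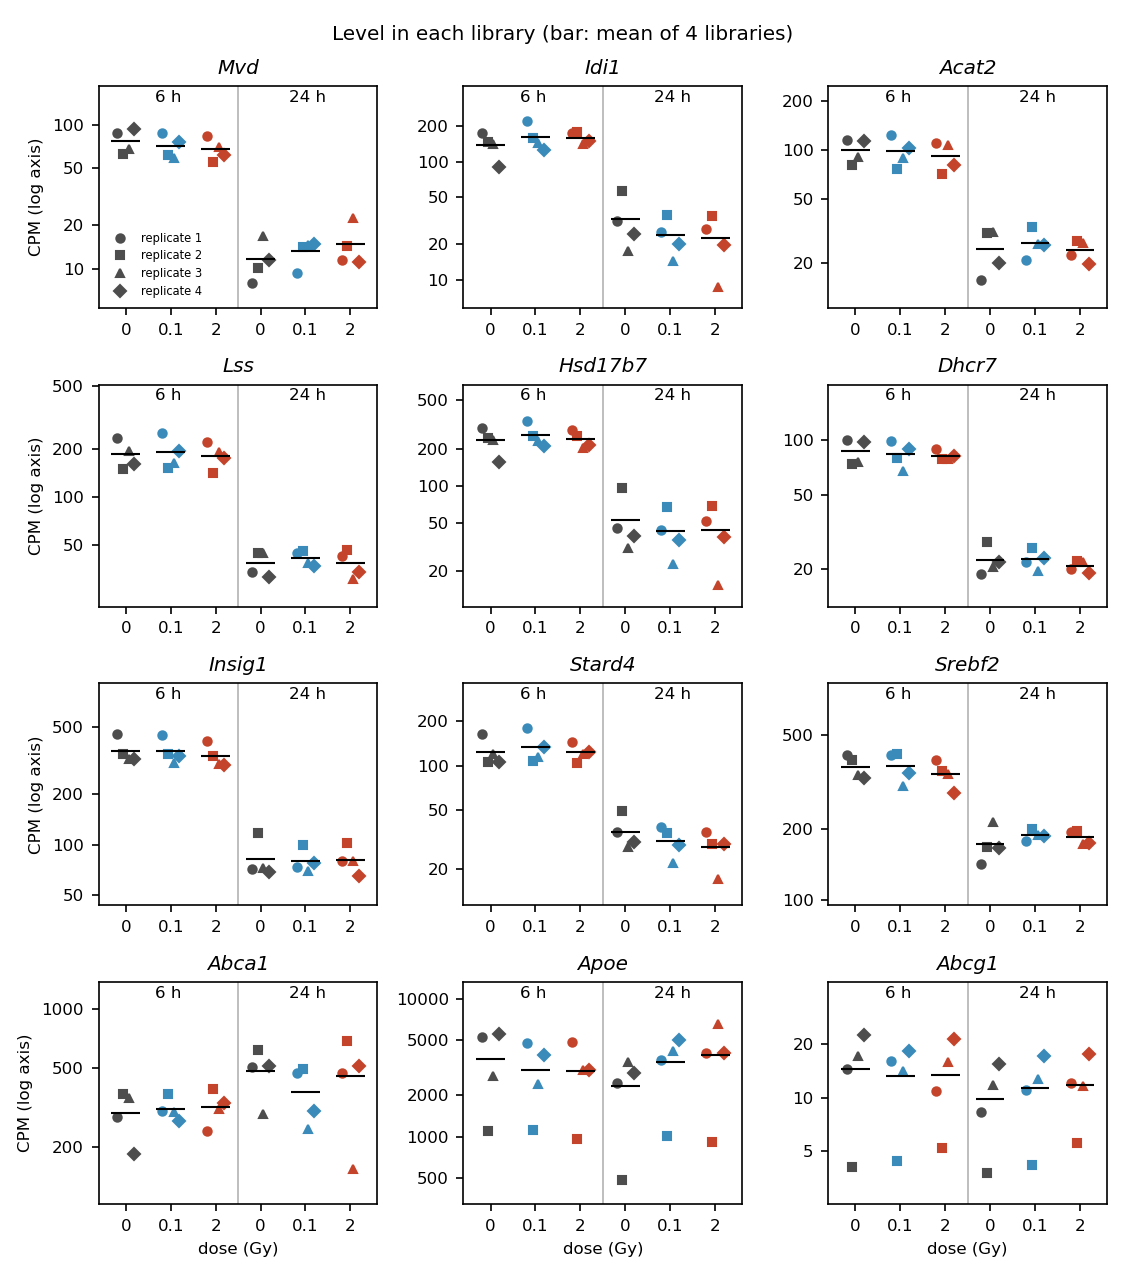
Level (CPM, log axis) of 12 genes in each of the 24 libraries, by dose (x axis) at 6 h (left of the line) and 24 h (right), with 1 symbol per replicate number and a bar at the mean of 4 libraries. The 9 genes in the upper 3 rows have all libraries at 24 h below all libraries at 6 h, while *Abca1*, *Apoe* and *Abcg1* overlap, and replicate 2 (squares) is the lowest for *Apoe* and *Abcg1* in every group.

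Genes of neighbouring pathways that are not among the 31 were counted in the same comparisons. Of 11 genes of fatty acid synthesis and desaturation, 3 were lower at 24 h in mock-irradiated cells, 4 after 0.1 Gy and 5 after 2 Gy, and none was higher, where 3.46%, 5.33% and 3.92% of all genes were called lower. With the replicate block, in which 14.0% and 10.4% of all genes were called lower, 10 were lower after 0.1 Gy and 7 after 2 Gy. *Fasn*, which encodes fatty acid synthase, fell by 1.60 on the log2 scale in mock-irradiated cells (SE 0.21, edgeR adjusted p = 0.00619), and *Acly*, whose enzyme supplies acetyl-CoA from citrate, fell by 1.15 (SE 0.14, edgeR adjusted p = 0.00513). *Elovl6*, a fatty acid elongase gene, fell by 1.02, 1.47 and 1.54 at 0, 0.1 and 2 Gy, and *Acss2*, an acetyl-CoA synthetase gene, fell by 0.87 after 2 Gy. Of 18 other genes of sterol handling, 2 fell and 1 rose in mock-irradiated cells, 4 fell after 0.1 Gy and 3 after 2 Gy, and with the block 8 fell and 1 rose after 0.1 Gy and 8 fell after 2 Gy. Of all genes 3.24% were called higher in mock-irradiated cells, and 11.8% and 8.82% with the block after 0.1 Gy and 2 Gy. Among them *Lrp8*, a receptor for apolipoprotein E and reelin, fell by 1.16 (SE 0.23, adjusted p = 0.0231 in edgeR's test), 1.37 and 1.52. *Lbr*, a sterol reductase of the nuclear membrane, fell by 0.97 after 0.1 Gy and 1.02 after 2 Gy, and *Nceh1*, a cholesteryl ester hydrolase gene, rose by 0.58 in mock-irradiated cells. Of 9 genes of the prenyl branch, *Icmt*, a methyltransferase gene, alone was called without the block, at −0.59 in mock-irradiated cells and −0.43 after 0.1 Gy, while with the block 3 fell and 1 rose after 0.1 Gy and 1 fell and 2 rose after 2 Gy. These lists were made with earlier results of the libraries known.

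Markers of proliferation were also followed between the time points. The summed level of the 10 markers was from 472.7 to 661.1 CPM at 6 h and from 489.7 to 568.3 CPM at 24 h in mock-irradiated cells, from 513.2 to 712.3 CPM and 413.9 to 454.9 CPM after 0.1 Gy, and from 457.2 to 534.9 CPM and 244.7 to 299.0 CPM after 2 Gy. The time points did not overlap after either dose. Of the 10 markers, 0, 2 and 6 were called lower at 24 h at 0, 0.1 and 2 Gy, where 3.46%, 5.33% and 3.92% of all genes were. With the block 4 and 8 were called lower after 0.1 Gy and 2 Gy (14.0% and 10.4% of all genes), and their part in the levels of the synthesis enzymes was not tested. Without the block, of the markers of other cell types *Syt1*, a neuronal gene, was called, after 0.1 Gy (0.89 on the log2 scale), and of the astrocyte markers *Sox9*, after 0.1 Gy and 2 Gy (0.81 at both). For the 7 markers of fibroblasts and vessels the summed level was from 286.6 to 1408 CPM at 6 h and from 324.8 to 1284 CPM at 24 h, over the 3 doses. In mock-irradiated cells at 6 h it was 1390, 1316, 476.9 and 368.7 CPM in replicates 1 to 4. Of these markers *Pecam1*, *Cdh5* and *Lum* were at most at 1.47, 4.18 and 0.387 CPM. The summed level of the 6 neuronal markers was from 399.6 to 609.2 CPM over the 12 libraries at 6 h and from 456.7 to 725.7 CPM at 24 h, with *Rbfox3* and *Snap25* at 0 in 1 and 2 libraries. For the 9 markers of the oligodendrocyte lineage it was from 289.8 to 727.2 CPM and from 340.7 to 815.9 CPM, with *Mog* at 0 in 10 libraries. The neuronal sum came mostly from *Map2*, *Stmn2* and *Tubb3*, with *Rbfox3*, *Snap25* and *Syt1* at most at 0.888, 1.26 and 6.01 CPM. The oligodendrocyte lineage sum came mostly from *Olig1*, *Olig2* and *Cspg4*, with *Sox10*, *Mag* and *Mog* at most at 2.81, 1.56 and 0.372 CPM. These sums are levels of markers and not amounts of cells. Both sums were higher at 24 h than at 6 h in 4 of 4 same-numbered pairs after 0.1 Gy and after 2 Gy. In mock-irradiated cells at 6 h the neuronal sum was 453.2, 601.3, 418.5 and 416.9 CPM, and it was higher at 24 h for each replicate number. The oligodendrocyte lineage sum was 462.5, 708.7, 333.0 and 363.5 CPM there. At 24 h it was higher for replicates 1 and 3 and lower for replicates 2 and 4. After 2 Gy the neuronal sum was 460.6, 609.2, 399.6 and 443.7 CPM at 6 h in replicates 1 to 4, and the oligodendrocyte lineage sum 456.6, 644.6, 328.4 and 289.8 CPM. After 0.1 Gy they were 428.1, 592.3, 422.4 and 419.5 CPM and 387.0, 727.2, 323.8 and 331.9 CPM, and the values at 24 h are given with the dose comparisons. The summed microglial markers were 1740, 188.4, 1465 and 1805 CPM at 6 h in mock-irradiated replicates 1 to 4. They were 1828, 194.7, 1459 and 1616 CPM after 0.1 Gy and 1649, 201.0, 1516 and 1587 CPM after 2 Gy. At 24 h, with values given beside *Apoe* below, they were lower except for replicate 2 after 0.1 Gy and replicate 3 after 2 Gy. The part of these and the other cell type markers in the results between the time points was not tested.

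**Figure D3:**
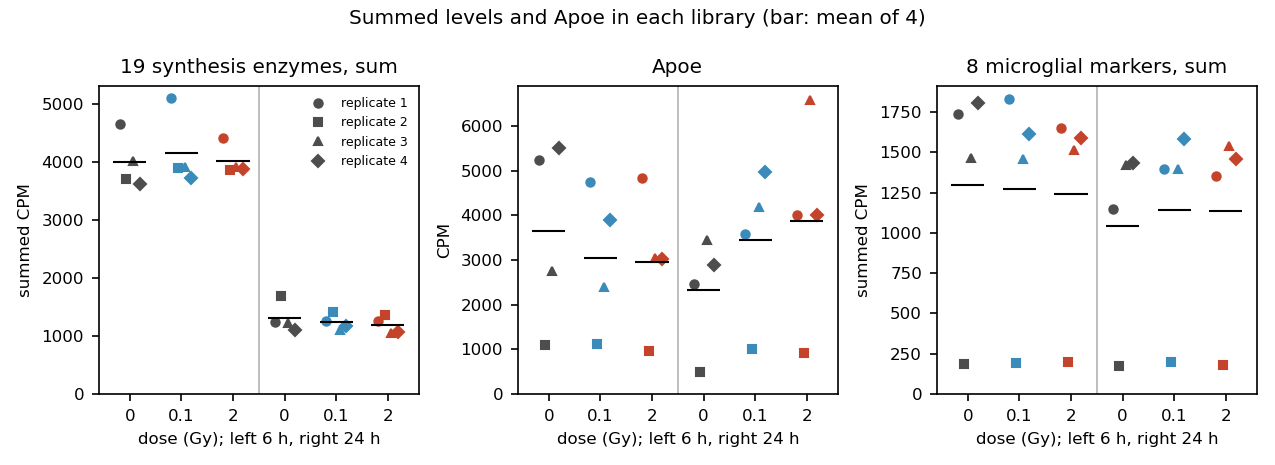
Summed level of the 19 synthesis enzymes (left, CPM), level of *Apoe* (middle, CPM) and summed level of 8 microglial markers (right, CPM) in each library, by dose at 6 h and 24 h, with 1 symbol per replicate number and a bar at the mean of 4. The enzymes separate the time points at every dose, and replicate 2 (squares) lies between 175.5 and 201.9 CPM for the microglial markers and is the lowest for *Apoe* in every group.

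The comparison of each dose with mock-irradiated cells asks whether X-rays changed these genes. When fitted in edgeR without the block, 0 of the 31 genes were called in each of the 4 dose comparisons, where 0% of all genes tested were called, and 0 of the 31 were at an unadjusted p under 0.05 (0.15% and 1.49% of all genes after 0.1 Gy at 6 h and 24 h, 1.34% and 3.59% after 2 Gy). DESeq2 also called 0 of the 31 in each, and of all genes 0 after 0.1 Gy at either time, 1 after 2 Gy at 6 h (0.00333%) and 103 after 2 Gy at 24 h (0.725%). The comparisons of 0.1 Gy and 2 Gy at a time point share the mock-irradiated libraries. At 6 h, the log2 fold changes of the 31 genes lay between −0.27 and 0.22 after 0.1 Gy and between −0.30 and 0.20 after 2 Gy, with a median standard error of 0.17 and 0.16, and all adjusted p were 1. Those with the smallest unadjusted p were *Idi1* (0.22 after 0.1 Gy and 0.20 after 2 Gy), *Ggps1* (0.10) and *Hmgcs1* (0.11) after 0.1 Gy and *Insig2* (0.15) and *Msmo1* (0.12) after 2 Gy on the higher side, and *Mvk* (−0.13 and −0.16), *Fdps* (−0.13 and −0.23) and *Nr1h2* (−0.14) after 0.1 Gy or *Mvd* (−0.20) after 2 Gy on the lower side. With the replicate block, 0 of the 31 genes were called at 6 h, as were 0% of all genes.

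At 24 h the log2 fold changes spread more widely, from −0.46 to 0.55 after 0.1 Gy and from −0.52 to 0.75 after 2 Gy, around medians of 0.018 and 0.001. The lowest adjusted p of the 31 genes without the block was 0.943 and 0.940 in edgeR's test. With the replicate block, 3 of the 31 were called after 0.1 Gy, where 6.84% of all genes tested were, and 9 after 2 Gy, where 13.2% were. The blocked counts depended on single replicates. Without replicate 1, 2, 3 or 4 they were 3, 0, 12 and 0 after 0.1 Gy, where 7.18%, 0.13%, 23.2% and 0.0987% of all genes were called, and 0, 0, 15 and 1 after 2 Gy, where 0.892%, 0.432%, 33.1% and 1.54% were. Of the 31 genes, 6 were higher and 5 lower in all 4 same-numbered pairs after 0.1 Gy, where 17.5% and 17.0% of 14266 genes were, and 8 were higher and 5 lower after 2 Gy, where 21.2% and 23.4% of 14313 genes were. The summed proliferation markers moved with dose in the same libraries, from 489.7 to 568.3 CPM in mock-irradiated cells, 413.9 to 454.9 CPM after 0.1 Gy and 244.7 to 299.0 CPM after 2 Gy, and their part in the results at 24 h was not tested. Nor was that of the summed markers of the oligodendrocyte lineage, mostly *Olig1*, *Olig2* and *Cspg4*. Their sum was 492.7, 567.1, 519.8 and 340.7 CPM in mock-irradiated replicates 1 to 4, 566.5, 815.9, 614.1 and 429.1 CPM after 0.1 Gy and 576.8, 813.7, 596.0 and 354.8 CPM after 2 Gy. It was higher in 4 of 4 pairs at both doses. The neuronal sum, mostly *Map2*, *Stmn2* and *Tubb3*, was 579.9, 725.7, 459.3 and 528.4 CPM, 511.8, 604.7, 456.7 and 469.6 CPM and 516.0, 659.7, 526.0 and 513.3 CPM in the same groups. It was lower in 4 of 4 pairs after 0.1 Gy and in 3 of 4 after 2 Gy, and its part was not tested. The mitochondrial share of the counts was from 1.90% to 4.97% in the mock-irradiated libraries at 24 h, from 1.47% to 2.57% after 0.1 Gy and from 0.947% to 2.18% after 2 Gy, and its part was not tested either.

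*Apoe* had the largest log2 fold change of the 31 at 24 h after either dose. It had 2457, 486.3, 3447 and 2883 CPM in mock-irradiated replicates 1 to 4, 3584, 1011, 4198 and 4974 CPM after 0.1 Gy and 4015, 915.4, 6590 and 4006 CPM after 2 Gy. The groups overlapped, but each irradiated library was above the mock-irradiated library of the same number, by 1.22 to 2.08 times after 0.1 Gy and by 1.39 to 1.91 times after 2 Gy. In the blocked fit *Apoe* rose by 0.66 on the log2 scale after 0.1 Gy (SE 0.12, adjusted p = 0.0262 in edgeR's test) and by 0.76 after 2 Gy (SE 0.11, adjusted p = 0.00968), against 0.55 (SE 0.60, adjusted p = 0.943) and 0.75 (SE 0.64, adjusted p = 0.940) in the fit of edgeR without the block. The call after 0.1 Gy was lost without replicate 2 (0.51, adjusted p = 0.0847) or replicate 4 (0.63, adjusted p = 0.133), and that after 2 Gy without replicate 1 (0.77, adjusted p = 0.0623) or replicate 2 (0.71, adjusted p = 0.109). At 24 h the summed microglial markers were 1150, 175.5, 1419 and 1431 CPM in mock-irradiated replicates 1 to 4, 1396, 201.9, 1394 and 1580 CPM after 0.1 Gy and 1353, 181.1, 1536 and 1461 CPM after 2 Gy, thus higher in 3 and in 4 of the 4 pairs, and their part in the level of *Apoe* was not tested.

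The other genes called with the block after 2 Gy at 24 h were lower or higher by less than 0.56 on the log2 scale. The LXR genes had a higher level in each of the 4 pairs. *Nr1h2* had 52.6, 35.9, 78.2 and 57.6 CPM in mock-irradiated cells and 60.3, 54.7, 106.8 and 68.8 CPM after 2 Gy (log2 fold change 0.38, SE 0.10, adjusted p = 0.0379 in the blocked fit of edgeR). *Nr1h3* had 9.39, 4.85, 13.5 and 11.6 CPM and 11.9, 6.38, 21.0 and 15.7 CPM (0.46, SE 0.11, adjusted p = 0.0298). For both genes the groups overlapped. *Scap* had 152.7, 135.9, 231.3 and 160.5 CPM and 225.4, 213.7, 247.7 and 199.2 CPM (0.41, SE 0.11, adjusted p = 0.0414 in the same fit). *Tm7sf2* had 20.3, 12.3, 39.7 and 21.5 CPM and 30.9, 19.6, 44.8 and 28.0 CPM (0.46, SE 0.11, adjusted p = 0.0321), and *Pmvk* had 15.8, 18.4, 32.6 and 15.9 CPM and 23.4, 25.1, 38.2 and 19.3 CPM (0.38, SE 0.10, adjusted p = 0.0402). These genes too were higher in 4 of 4 pairs, with overlapping groups.

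On the lower side, *Ggps1* had 51.7, 49.3, 33.3 and 44.5 CPM in mock-irradiated cells at 24 h, 41.4, 38.3, 29.7 and 30.5 CPM after 0.1 Gy and 38.8, 38.4, 24.5 and 35.9 CPM after 2 Gy. It was lower in 4 of 4 pairs after either dose, with overlapping groups (log2 fold change −0.36, adjusted p = 0.0442 and −0.38, adjusted p = 0.0261 in the blocked fits of edgeR). *Idi1* had 31.3, 56.6, 17.5 and 24.6 CPM, 25.3, 35.5, 14.3 and 20 CPM and 27.0, 34.8, 8.62 and 19.6 CPM in the same groups. It too was lower in 4 of 4 pairs after either dose (−0.41, adjusted p = 0.0356 and −0.55, adjusted p = 0.0338 in the blocked fits). *Sc5d* had 165.5, 206.6, 109.7 and 126.5 CPM in mock-irradiated cells and 144.2, 155, 77.7 and 107.6 CPM after 2 Gy, lower in 4 of 4 pairs (−0.33, adjusted p = 0.0437 in the blocked fit), and it was not called after 0.1 Gy. Of the other pathway genes, *Elovl6* (−0.45), the desaturase gene *Scd1* (−0.34), *Lbr* (−0.48) and the sterol handling gene *Tmem97* (−0.39) fell and *Npc2* (0.41), which carries cholesterol out of lysosomes, rose after 2 Gy at 24 h in the blocked fit, and none was called without the block. These are 5 of 38 genes of the 3 lists (13.2%), the same share as over all genes in that fit (13.2%).

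The dose differences were related to the GC content of the genes, which ranged from 40.1% to 60.6% among the 31. The genes called lower with the block after 2 Gy at 24 h had GC contents from 40.1% to 42.9%, and those called higher from 51.0% to 60.6%. Across the 31 genes, Pearson's r between GC content and the log2 fold change was 0.86 after 0.1 Gy and 0.888 after 2 Gy at 24 h, and −0.814 and −0.692 at 6 h. These are descriptions across genes, which share their libraries and are not independent replicates. The same r over all genes tested was 0.587 and 0.559 at 24 h and −0.341 and −0.373 at 6 h. For 24 h against 6 h, r across the 31 genes was 0.19 in mock-irradiated cells, 0.447 after 0.1 Gy and 0.488 after 2 Gy, and over all genes tested it was −0.316, 0.0632 and 0.143. When GC content and gene length were corrected for beside the replicate block, *Apoe* was the only one of the 31 that was called at 24 h, by 0.37 on the log2 scale after 0.1 Gy (SE 0.07, adjusted p = 0.0220 in edgeR's test), where 1.89% of all genes were called, and by 0.42 after 2 Gy (SE 0.09, adjusted p = 0.0380), where 3.51% were. At 6 h that fit called 0 of the 31 after either dose, and 0% and 0.719% of all genes. At 24 h *Tm7sf2* had 0.40 after either dose (adjusted p = 0.0814 and 0.0630), and *Nr1h2* 0.03 and 0.07.

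**Figure D4:**
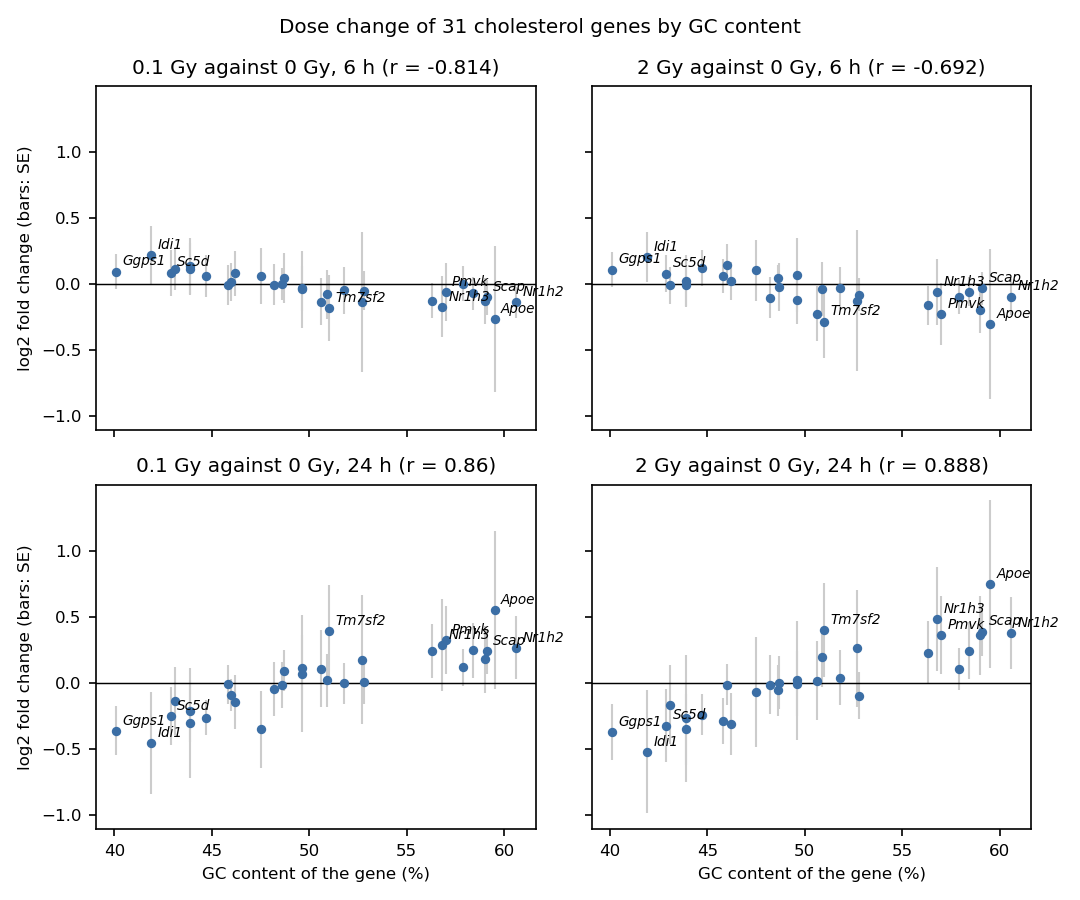
Log2 fold change of each of the 31 genes (edgeR without the block, bars: standard error) against the GC content of the gene (%), for 0.1 Gy (left) and 2 Gy (right) against mock-irradiated cells at 6 h (top) and 24 h (bottom). GC-rich genes such as *Apoe* and *Scap* lie above 0 and GC-poor genes such as *Ggps1* and *Idi1* below 0 at 24 h, and the slope is turned at 6 h, with r from −0.814 to 0.888.

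The interaction of dose and time asks whether the change between 6 h and 24 h differed in irradiated cells. Without the block 0 of the 31 genes were called for either dose, as were 0% of all genes, and 0 of the 31 were at an unadjusted p under 0.05 (2.53% and 4.9% of all genes), and DESeq2 called 0 of the 31 as well (0% and 0.0125% of all genes). With the replicate number as a block within each time point, 5 of the 31 were called for 0.1 Gy (8.87% of all genes) and 4 for 2 Gy (6.78%). *Apoe*, which in mock-irradiated cells was from 1095 to 5512 CPM at 6 h and from 486.3 to 3447 CPM at 24 h, had a difference between the time changes of 0.87 (SE 0.16, adjusted p = 0.0214 in the blocked fit of edgeR) for 0.1 Gy and 1.03 (SE 0.20, adjusted p = 0.0335) for 2 Gy. For *Idi1* the difference was −0.63 (adjusted p = 0.0214) and −0.78 (adjusted p = 0.0418), and for *Tm7sf2* 0.65 (adjusted p = 0.0330) and 0.76 (adjusted p = 0.0428). *Ggps1* (−0.46, adjusted p = 0.0366) and *Nr1h2* (0.44, adjusted p = 0.0372) were called for 0.1 Gy alone, and *Pmvk* (0.64, adjusted p = 0.0405) for 2 Gy alone, in the same blocked fits. Whether the doses differ from each other in this was not tested. The GC content was again related to the difference across the 31 genes (r = 0.862 and 0.875), and with GC content and length corrected for beside the block *Apoe* alone was called, at 0.48 (adjusted p = 0.0360 in edgeR's test) and 0.56 (adjusted p = 0.0395), where 0.974% and 2.38% of all genes were. In these corrected fits the 31 genes lay between −0.393 and 0.57 for 0.1 Gy and between −0.474 and 0.686 for 2 Gy. The largest values thus belonged to genes that were not called. Without replicate 1, 2, 3 or 4, the blocked counts were 0, 0, 14 and 0 for 0.1 Gy, where 0.0116%, 0.0118%, 20.2% and 0.0117% of all genes were called, and 0, 0, 15 and 1 for 2 Gy, where 0%, 0%, 23.4% and 0.814% were.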

How the data were processed

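Polyadenylated mRNA of 24 cultures was sequenced as paired reads by a company, which also trimmed and mapped the reads. The authors deposited whole-number counts per gene, not normalized and not pooled, 1 table per library. The submitters' processing notes name the build mm10. The aligner, the counting tool and the use of strand are not given in the sources used here, so reads of overlapping genes may be shared for *Mvd*, *Fdps*, *Ggps1*, *Fdft1*, *Lss*, *Cyp51*, *Tm7sf2*, *Srebf1*, *Srebf2*, *Insig2*, *Scap* and *Nr1h3*. Libraries held from 14742855 to 38194800 counts. Replicates of a group differed far beyond counting noise (chi-square per degree of freedom 28.33 or more), so no library was taken for a copy of another.

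Groups and replicate numbers came from the sample labels. The 31 genes and all gene lists were chosen with earlier results of these data known. Fits were made with edgeR 4.0.16 under R 4.3.3, using TMM factors, its default low-count filter and quasi-likelihood tests, with p adjusted by Benjamini-Hochberg over all genes tested, on the 8 libraries compared, or 16 for the interactions. Genes with an adjusted p under 0.05 are named as called, whatever their fold change. Fold changes are fitted values. CPM were scaled with TMM over all 24 libraries. GC content is that of the longest annotated transcript. Same-numbered libraries correlated in their deviations from the group means, by 0.514 to 0.907 in the dose comparisons and 0.367 to 0.832 and 0.246 to 0.81 between the time points after 0.1 Gy and 2 Gy. In mock-irradiated cells replicate 3 had 0.0887 and the others from 0.378 to 0.8. Numbers were taken as paired where every correlation was over 0.1, so mock-irradiated cells were not taken as paired over time.

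The genes named with test values are those called in a dose or interaction comparison with or without the block, or else the 3 of smallest p in each direction. Values per library are given for the called genes and for the 3 of largest change between the time points in mock-irradiated cells in each role. Alternatives were DESeq2 1.42.0, its size factors in place of TMM, plain library size, unfiltered counts, the replicate block, all 24 libraries in one fit, a minimum absolute log2 fold change of 1, offsets for GC content and length (from splines of 5 degrees of freedom), alone or beside the block, and each library left out in turn. Chosen after the data were seen were edgeR's newer quasi-likelihood method and the block without each replicate number. The scripts for the fits were tested on simulated data. Sequences are from RefSeq on GRCm38.p6.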

Additional observations from a re-analysis of the deposited data

Results flagged for a closer look

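In 7 of 186 groups of 4 libraries (31 genes in 6 groups, 3.76%) a library stood apart from the other 3 by Dixon's test, where chance gives about 1 in 20. *Pmvk* was at 32.6 CPM in mock-irradiated replicate 3 at 24 h (others 15.8 to 18.4), and *Insig1* at 116.8 CPM in replicate 2 of the same group (others 69.2 to 72.3). *Mvd* was at 9.37 CPM in replicate 1 at 24 h after 0.1 Gy (others 14.1 to 14.8), and *Sqle* at 189.8 CPM in replicate 2 of that group (others 145.8 to 151.4). At 6 h after 2 Gy, *Sqle* was at 365.3 CPM in replicate 2 (others 301.2 to 307.1) and *Nsdhl* at 85.8 CPM in replicate 3 (others 70.1 to 72.0). *Mylip* was at 8.07 CPM in replicate 2 at 6 h after 0.1 Gy (others 16.2 to 17.3).

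In the blocked interaction fits of edgeR, 5 of the 31 genes were called for 0.1 Gy and 4 for 2 Gy, and 0 without the block. Of all genes 8.87% and 6.78% were called in the blocked fits. Without replicate 1, 2, 3 or 4 the counts were 0, 0, 14 and 0 for 0.1 Gy (0.0116%, 0.0118%, 20.2% and 0.0117% of all genes). For 2 Gy they were 0, 0, 15 and 1 (0%, 0%, 23.4% and 0.814%). With GC content and length corrected for beside the block, *Apoe* alone was called for either dose. In the blocked fits of all replicates, the difference between the time changes for 0.1 Gy was, on the log2 scale, 0.87 for *Apoe*, −0.46 for *Ggps1*, −0.63 for *Idi1*, 0.44 for *Nr1h2* and 0.65 for *Tm7sf2*. For 2 Gy it was 1.03 for *Apoe*, −0.78 for *Idi1*, 0.64 for *Pmvk* and 0.76 for *Tm7sf2*.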

How the results depend on the processing

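The count of the 31 genes called between the time points, 19, 19 and 18 at 0, 0.1 and 2 Gy, stayed within 15 and 24 under the alternatives other than leaving out a library, in fits that called from 2.42% to 36.1% of all genes, with 19, 21 and 21 under the replicate block, where 15.3%, 25.7% and 19.2% of all genes were called. In mock-irradiated cells the numbers were not taken to pair the samples, though 3 of 4 libraries correlated best with their own number, as after 0.1 Gy. The count there ranged from 11 to 21 with 1 library left out. It was 11 without replicate 1 at 24 h, and 12 without replicate 4 at 24 h or replicate 1 at 6 h. In these fits 1.21%, 1.32% and 1.04% of all genes were called, against 6.7% with every library, and the cause was not tested. In that replicate 1 at 24 h, *Gm42418* took 10.42% of the counts, the most of the 24 libraries (lowest 0.36%). After 0.1 Gy and 2 Gy that range was 19 to 21 and 15 to 20, with 3.22% to 11.5% and 1.36% to 11.4% of all genes called.

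In the dose comparisons at 6 h, 0 of the 31 genes were called under every alternative. In those at 24 h and in the interactions, genes of the 31 were called under no alternative but the replicate block, with or without the correction for GC content and length. Under the replicate block the counts at 24 h were 3 and 9 for 0.1 Gy and 2 Gy (6.84% and 13.2% of all genes). For the interactions they were 5 and 4 (8.87% and 6.78%). With the correction beside the block each was 1, where 1.89% and 3.51% of all genes were called at 24 h and 0.974% and 2.38% for the interactions. Under the block without each replicate number, the counts ranged from 0 to 12 and 0 to 15 at 24 h and from 0 to 14 and 0 to 15 for the interactions. They were highest without replicate 3, where 23.2% and 33.1% of all genes were called at 24 h and 20.2% and 23.4% for the interactions. The block changed no other call of a dose comparison. *Hmgcs1* after 0.1 Gy at 6 h, 0.11 on the log2 scale, reversed to −0.005 without replicate 1 of the irradiated group, and ranged up to 0.205 (without mock-irradiated replicate 1). Between the time points, with 1 library left out, *Apoe* ranged from −0.101 to 0.478 after 0.1 Gy and from −0.003 to 0.717 after 2 Gy, and *Abcg1* from −0.524 to 0.024 and from −0.435 to 0.129. Other values kept their sign but changed in size, as *Abca1* did from 0.11 to 0.437 and from 0.239 to 0.802. Against mock-irradiated cells at 24 h, without the block, *Idi1* ranged from −0.726 to −0.053 after 0.1 Gy and from −0.815 to −0.11 after 2 Gy. *Apoe* there ranged from 0.212 to 0.852 and from 0.381 to 1.064. The cause was not tested. Between the time points, 610 values of single genes moved by less than 1 SD between replicates, those changes of sign of *Apoe* and *Abcg1* included, and 2 moved by more, both of *Srebf2* in mock-irradiated cells, to −0.88 with the correction for GC content and length, without and with the block. Of the values of single genes in the dose and interaction comparisons, 607 kept their direction and their side of the threshold and 49 passed it, all in a blocked fit. The lowest count of the 31 genes in any library was 81, for *Abcg1*.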
